A study of Mus musculus with 6 samples.

Results

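The 10 genes described here build the contacts and the sealed border of epithelial cells: the cadherins Cdh1 and Cdh3, the desmosome gene Dsp, the adhesion gene Epcam, the tight junction genes Cldn3, Cldn4, Cldn6, Cldn7 and Ocln, and the polarity gene Crb3. They were taken by name, and all 10 were found among the 19938 genes that could be named. Each had 1 probe set, the group of short probes that together report 1 transcript. Their expression was followed in mouse embryonic fibroblasts, cultures of connective tissue cells grown from embryos, on 6 single-colour Affymetrix arrays. All cultures carried retroviruses for 3 reprogramming factors, Oct4, Sox2 and Klf4, added on day 0, and all were taken on day 8. The cultures differed in Foxd1, a forkhead transcription factor gene, and were labelled Foxd1+/+, Foxd1+/- or Foxd1-/-, with 2 arrays per genotype numbered as biological replicates 1 and 2. The labels do not give the part of Foxd1 that was removed, the age or number of the embryos, or what was kept separate between the 2 replicates, and each error below is therefore the spread between arrays, which may be technical. Uninfected cells and other days were not analysed here, so the values are levels at a single time and not a gain over time.

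Fibroblasts move singly and are held to a fibrous matrix, whereas epithelial cells form sheets in which neighbours are joined along their sides. Adherens junctions join the cells through cadherins, desmosomes tie the keratin filaments of neighbours together through desmoplakin, the product of Dsp, and tight junctions of claudins and occludin close the gap between cells below the free surface. Fibroblasts under reprogramming pass through a mesenchymal to epithelial transition, in which genes of this kind are gained as Snail, Zeb and Twist factors recede, and E-cadherin, the product of Cdh1, also joins pluripotent cells to each other.

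The stretch before the transcription start is where repressors of this transition bind. Snail and Zeb proteins recognise the E-box CACCTG, which reads CAGGTG on the other strand. Promoters of 8 of the 10 genes, all but Cdh1 and Cdh3, were matched by symbol in RefSeq sequences (build GRCm38.p6), with 11 start sites in all. The 250 bases before each start were searched for these 6 letters on both strands. Windows of 1 gene can overlap: those of Crb3 share 220 bases and those of Ocln share 30. Counted by gene, in any of its windows, the E-box was found in 6 of the 8 genes and in 19.4% of the 27025 genes of the RefSeq table. The windows of the 8 genes held 51.2 to 72.4% G and C, beside a median of 52.4% over all promoters. Motif counts here and below were not matched for this content. Epcam is shown as the gene with the widest range over the arrays, Cldn4 as the gene that differed most clearly by replicate number, and Dsp as the gene with the largest positive log2 difference of Foxd1-/- from the other genotypes, which passed no test. Capitals mark the E-boxes.
Epcam, chr17:87635729-87635978, plus strand: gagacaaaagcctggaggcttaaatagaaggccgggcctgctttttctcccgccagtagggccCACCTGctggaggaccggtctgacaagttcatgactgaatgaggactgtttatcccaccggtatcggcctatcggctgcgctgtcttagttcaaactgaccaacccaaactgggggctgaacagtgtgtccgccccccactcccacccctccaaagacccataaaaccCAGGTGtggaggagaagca
Cldn4, chr5:134946935-134947184, minus strand: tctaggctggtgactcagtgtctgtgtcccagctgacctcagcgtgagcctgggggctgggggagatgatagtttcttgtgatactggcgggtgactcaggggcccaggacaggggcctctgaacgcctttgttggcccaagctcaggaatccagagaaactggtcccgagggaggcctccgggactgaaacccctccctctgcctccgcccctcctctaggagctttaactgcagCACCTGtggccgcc
Dsp, chr13:38151044-38151293, plus strand: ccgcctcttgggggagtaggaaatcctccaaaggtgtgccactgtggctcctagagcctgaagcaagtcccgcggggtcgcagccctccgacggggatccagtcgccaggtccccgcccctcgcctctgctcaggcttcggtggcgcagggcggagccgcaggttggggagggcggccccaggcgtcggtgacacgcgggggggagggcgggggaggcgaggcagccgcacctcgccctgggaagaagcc
Epcam held 2 E-boxes, starting 187 and 19 bases before the start site, Cldn4 held 1 at 14 bases, and Dsp held 0 in this window. Of the others, Crb3 held 3, which lie in both of its overlapping windows, Cldn6 held 1, Cldn7 and Ocln held 2 before 1 of their 2 start sites, and Cldn3 held 0. The GC box GGGCGG, the letters read by Klf and Sp factors, was present on either strand in all 8 genes and in 35.4% of the genes of the table. The grainyhead motif AACCGGTT was in 0 of the 8 (0.137% of the table's genes), as was the octamer ATGCAAAT that Oct4 reads (1.81%). A match is a run of letters and not a measured binding site.

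Linear intensities of 28856 probe sets were used, with array medians from 76.5 to 79.6 and a lowest value of 19.5. They carry no call of presence, so a dim gene cannot be told from background. Of the 10 genes, 6 had a mean at or above the median probe set (78.4), and Cdh3, Cldn6, Ocln and Crb3 lay below it. Of the fibroblast markers, the growth factor receptors Pdgfra and Pdgfrb read 237 to 478 and 407 to 826, and every array lay above the median probe set for both.

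Foxd1 checks the labels. It read 1907 and 1169 on the arrays labelled Foxd1+/+ (replicates 1 and 2), 1014 and 2074 on those labelled Foxd1+/-, and 189 and 213 on those labelled Foxd1-/-. Foxd1 was thus low on both arrays labelled Foxd1-/-, but the array labelled Foxd1+/- replicate 2 held more of it than either array labelled Foxd1+/+. The fitted log2 difference of Foxd1 was -2.89 ± 0.41 for Foxd1-/- against Foxd1+/+ and -2.85 ± 0.41 against Foxd1+/- (SE, n = 2 arrays each), and neither passed over all genes in limma (unadjusted p of 0.00111 and 0.00118). Between Foxd1+/- and Foxd1+/+ it was -0.04 ± 0.41, so Foxd1 does not bear out the labels of these 4 arrays. Whether any of them were exchanged was not tested. Genotypes below are those of the labels, and every direction that involves Foxd1+/+ or Foxd1+/- rests on them.

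Cdh1, which encodes E-cadherin, read 681 and 502 on the arrays labelled Foxd1+/+, 501 and 637 on Foxd1+/-, and 625 and 609 on Foxd1-/-. Its highest and lowest arrays carried Foxd1+/+ and Foxd1+/- labels, and both Foxd1-/- arrays lay between them, so no genotype stood apart. Foxd1-/- minus Foxd1+/+ came to 0.08 ± 0.19 on the log2 scale (SE, n = 2 arrays each), with a 95% interval from -0.41 to 0.57. Cdh3, its neighbour in the genome with 0 protein-coding genes between them, encodes P-cadherin, the cadherin of basal epithelial layers and placenta. It was dim and nearly level, at 55.2 and 51.7 on Foxd1+/+, 49.6 and 53.2 on Foxd1+/-, and 53.2 and 51.0 on Foxd1-/-. The highest and lowest Cdh3 arrays were the same as for Cdh1, Foxd1+/+ replicate 1 and Foxd1+/- replicate 1.

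Dsp, whose product anchors keratin filaments at desmosomes, gave 304 and 247 on Foxd1+/+, 338 and 219 on Foxd1+/-, and 406 and 349 on Foxd1-/-. Both Foxd1-/- arrays lay above all 4 others, the only member of the 10 with this separation, which held for 5.59% of all genes, so that 1 of 10 is near the background. Replicate 2 lay below replicate 1 in each genotype. The log2 difference was 0.46 ± 0.24 against Foxd1+/+ and 0.47 ± 0.24 against Foxd1+/- (SE, n = 2 arrays each), about 1.37-fold and 1.38-fold. Neither passed in limma, with unadjusted p of 0.117 and 0.112. With the replicate number as a block the unadjusted p values were 0.00965 and 0.00889, where 7.54% and 7.56% of all genes were under 0.05, still not past the threshold over all genes (limma adjusted p of 0.56 and 0.57).

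Epcam, a surface glycoprotein of epithelia and of pluripotent cells, went the other way. It read 483 and 313 on Foxd1+/+, 396 and 425 on Foxd1+/-, and 359 and 226 on Foxd1-/-. Both Foxd1-/- arrays lay below both Foxd1+/- arrays, but Foxd1-/- replicate 1 lay above Foxd1+/+ replicate 2. Within a replicate number Foxd1-/- lay below Foxd1+/+ by -0.43 and -0.47 on the log2 scale. The fitted difference was -0.45 ± 0.30 against Foxd1+/+ and -0.52 ± 0.30 against Foxd1+/- (SE, n = 2 arrays each). Without a replicate block it was smaller than 2 SE in each case, and not past the test in limma (unadjusted p of 0.199 and 0.145). With 1 array left out it ranged from -0.78 to -0.12 and from -0.86 to -0.19. With the replicate number as a block the SE of Epcam was 0.20, with unadjusted p of 0.080 and 0.051 in limma. Neither passed over all genes (limma adjusted p of 0.72 and 0.66). Epcam had the widest range of the 10 genes, 2.14-fold from Foxd1-/- replicate 2 to Foxd1+/+ replicate 1, which is 1.09 on the log2 scale. It was the only member with a log2 range of at least 1, which 3.15% of all genes reached. Fewer cells that express a gene and less RNA in each cell cannot be told apart in such bulk cultures.

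The claudins span the membrane and pair across the gap between cells. Cldn3 and Cldn4, which lie side by side on chromosome 5 with 0 protein-coding genes between them, did not share a pattern. Cldn3 read 125 and 122 on Foxd1+/+, 124 and 153 on Foxd1+/-, and 121 and 132 on Foxd1-/-, so that Foxd1+/- replicate 2 stood above 5 arrays that lay close together. Cldn4 read 228 and 168 on Foxd1+/+, 203 and 152 on Foxd1+/-, and 206 and 178 on Foxd1-/-. All 3 arrays numbered 1 lay above all 3 numbered 2 for Cldn4, and the genotypes overlapped. Cldn7, found along the sides of many epithelial cells and a partner of the Epcam protein, read 73.7 and 81.5 on Foxd1+/+, 76.1 and 106 on Foxd1+/-, and 76.4 and 76.0 on Foxd1-/-. Its high array was Foxd1+/- replicate 2, as for Cldn3. Among the members, Cldn7 had the array profile nearest to that of Cldn3, with a root mean square difference of 0.095 between their log2 profiles, each set to a mean of 0. Cldn6, a claudin of early embryonic epithelia and pluripotent cells, was dim, at 49.9 and 42.9 on Foxd1+/+, 44.6 and 49.1 on Foxd1+/-, and 42.5 and 44.0 on Foxd1-/-. Its 2 Foxd1-/- arrays lay below both Foxd1+/- arrays but not below both Foxd1+/+ arrays.

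Occludin, the product of Ocln, is a tight junction protein of another family, and the small protein from Crb3 marks the free side of the cell. Ocln read 58.7 and 52.0 on Foxd1+/+, 55.7 and 65.3 on Foxd1+/-, and 53.1 and 43.5 on Foxd1-/-. Both Foxd1-/- arrays were below both Foxd1+/- arrays, with a log2 difference of -0.32 ± 0.14 (SE, n = 2 arrays each), a 95% interval from -0.68 to 0.04 and an unadjusted p of 0.0694 in limma. Crb3 read 72.5 and 65.5 on Foxd1+/+, 71.1 and 79.5 on Foxd1+/-, and 73.8 and 61.6 on Foxd1-/-. Crb3 and Ocln shared their highest array, Foxd1+/- replicate 2, and their lowest, Foxd1-/- replicate 2, and each was the other's nearest profile among the members (root mean square difference 0.082). This measure is small for any 2 genes that vary little, and the closest members were the dim Cdh3 and Cldn6 at 0.072. Foxd1-/- replicate 2 was the lowest array for 3 of the 10 genes, Epcam, Ocln and Crb3, as it was for 22.5% of all genes.

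**Figure D1:**
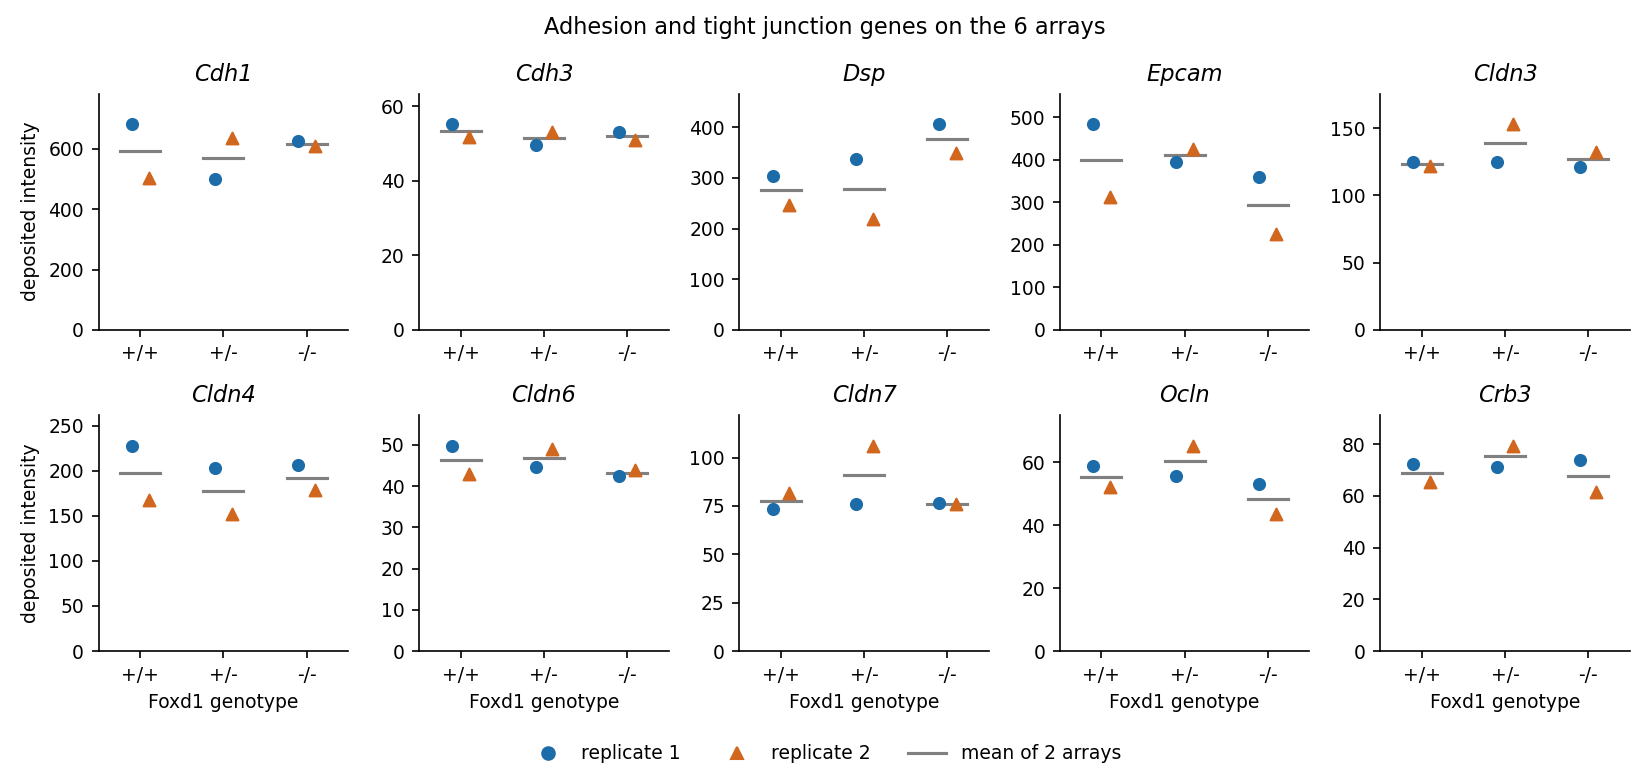
Deposited intensity (linear scale, from 0) of the 10 genes by Foxd1 genotype, 1 point per array, circles for replicate 1, triangles for replicate 2 and a grey line for the mean of 2 arrays. Dsp sits highest on the Foxd1-/- arrays (406 and 349), Epcam lowest on Foxd1-/- replicate 2 (226), and every triangle of Cldn4 lies below every circle.

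The comparison of Foxd1-/- with Foxd1+/+ asks what loss of both copies does to these genes on day 8. It gave 3 members above 0 (Cdh1, Cldn3, Dsp) and 7 below, where 51.8% and 48.2% of all genes were. The median log2 difference was -0.030 over the members and 0.0032 over all genes. In limma 0 of the 10 genes and 0 of all genes passed (0.00% called). At an unadjusted p under 0.05 there were 0 members, beside 421 genes in all (2.11%). Without either Foxd1+/- array, which changes only the shared estimate of spread, Dsp had one, beside 385 genes (1.93%). The genes numbered 818 without Foxd1-/- replicate 1 and 199 without Foxd1-/- replicate 2, with 0 members in each. Dsp alone had arrays that did not overlap, with Foxd1-/- the higher, as in 13.6% of all genes, and 0 members had Foxd1-/- the lower, against 12.1%. Leaving out 1 array turned the sign of 7 of the 10 differences, all but those of Epcam, Ocln and Dsp.

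Against the arrays labelled Foxd1+/-, Foxd1-/- had 6 members below 0 and 4 above (Cdh1, Cdh3, Cldn4, Dsp), where 51.4% and 48.6% of all genes were. The median was -0.12 over the members and -0.0027 over all genes. Arrays of Epcam, Cldn6 and Ocln did not overlap, with Foxd1-/- the lower, 3 of 10 members beside 13.6% of all genes, and those of Dsp did not, with Foxd1-/- the higher, beside 12.0%. Again 0 members passed in limma (0.00% of all genes), and 0 members had an unadjusted p under 0.05, beside 460 genes (2.31%). That count moved with single arrays. Without Foxd1+/- replicate 1 it was 3 members (Cldn3, Cldn7 and Dsp) beside 842 genes (4.22%). Without Foxd1-/- replicate 1 it was 2 (Epcam and Ocln) beside 925 genes (4.64%), and without Foxd1-/- replicate 2 it was 0 beside 169 (0.848%). The same Foxd1-/- arrays serve both comparisons. Setting Foxd1-/- against the mean of the other genotypes gave 7 members below 0 and 3 above (50.4% and 49.6% of all genes), 0 passing in limma (0.00% of all genes), 0 at an unadjusted p under 0.05 (2.74%), 0 with both Foxd1-/- arrays below the other 4 (5.25%), and log2 differences of 0.46 ± 0.21 for Dsp, -0.49 ± 0.26 for Epcam and -0.26 ± 0.12 for Ocln (SE, 2 arrays against 4). Without Foxd1+/- replicate 1, Cldn7 and Dsp had an unadjusted p under 0.05 (599 genes in all), and without Foxd1-/- replicate 1, Epcam and Ocln did (1059 genes). With the replicate block, Dsp and Epcam were the 2 members at an unadjusted p under 0.05 there (0.00519 and 0.0410), beside 9.21% of all genes, and neither passed after adjustment in limma (0.37 and 0.52).

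Between the arrays labelled Foxd1+/- and those labelled Foxd1+/+, which did not differ in Foxd1 beyond its error (-0.04 ± 0.41), 6 members were above 0 and 4 below (51.6% and 48.4% of all genes), with a median of 0.046 beside 0.0024. The largest differences were 0.21 ± 0.17 for Cldn7 and 0.16 ± 0.11 for Cldn3 (SE, n = 2 arrays each), and 0 members had arrays that did not overlap in either direction, against 12.3% of genes higher and 8.00% lower. In limma 0 members passed (0.00% of all genes), 0 had an unadjusted p under 0.05, beside 193 genes (0.968%), and 0 had one with the replicate block, beside 2.01%. Without Foxd1+/- replicate 1 Cldn3 and Cldn7 had one, beside 642 genes (3.22%). A test for any difference over the 3 genotypes also called 0 members and 0 genes in limma, with 0 members and 272 genes (1.36%) at an unadjusted p under 0.05, and with the replicate block 1 member, Dsp, and 5.62% of genes. With 2 arrays against 2, an exact rank test cannot give a p below 0.333. The 95% intervals still reached -1.31 on the log2 scale for Epcam and 1.09 for Dsp, while for Cdh3 they lie within -0.23 and 0.20 in all 3 pairs of genotypes.

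**Figure D2:**
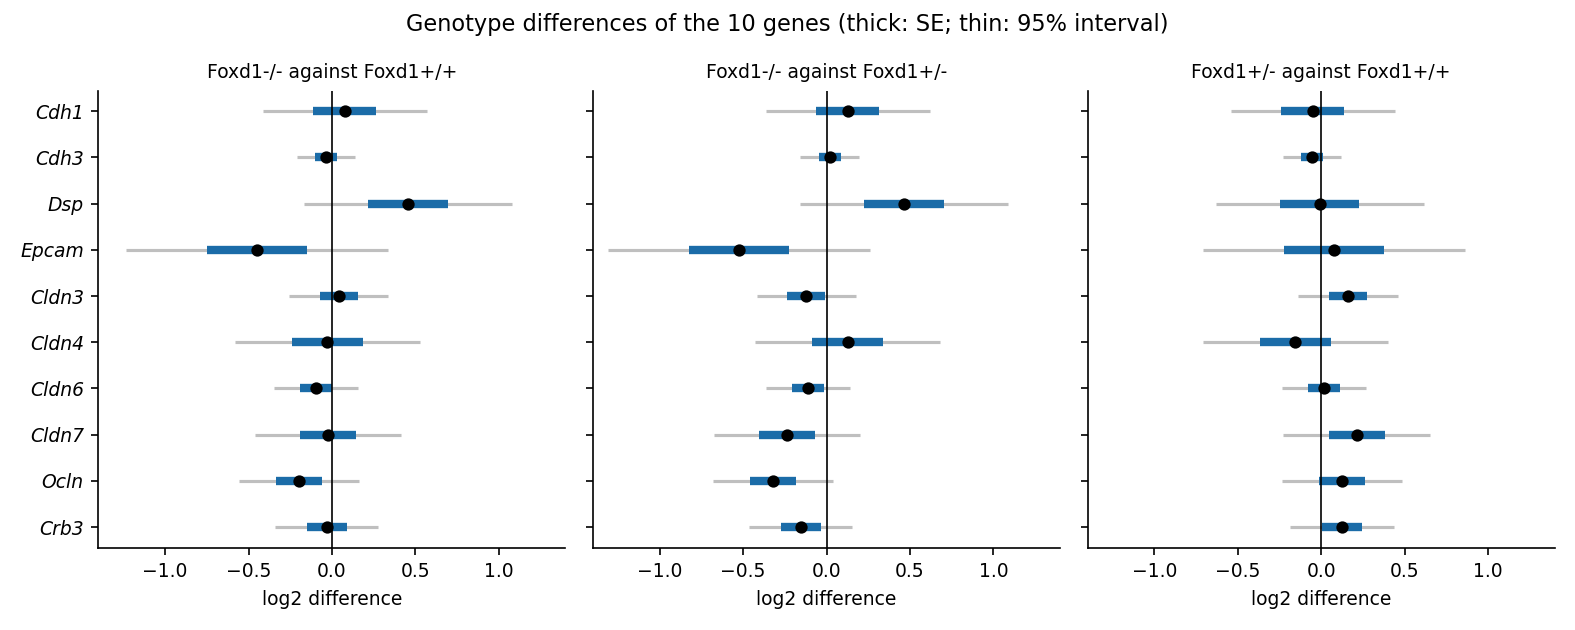
Log2 difference of each gene between the genotypes named above each panel (point), its SE (thick line) and its 95% interval (thin line) from limma on all 6 arrays. The replicate block was not used. Every interval of this fit includes 0, and Dsp (0.46 and 0.47) and Epcam (-0.45 and -0.52) lie farthest from it in the comparisons of Foxd1-/-. With the block the SE of Dsp was 0.11, in place of 0.24.

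The replicate number separated Cldn4 more clearly than any genotype did. Fitted with genotype as a term, Cldn4 was lower on arrays numbered 2 by 1.28-fold (log2 difference -0.35 ± 0.06, SE, 3 arrays against 3) and passed in limma (adjusted p = 0.0398), 1 of 10 members where 8.85% of all genes passed. The Cldn4 call ended with a pseudocount of 32 (limma adjusted p = 0.0557). Leaving out 1 array also takes its same-genotype partner out of this difference, so that each such fit rests on 2 genotypes. Cldn4 then differed by -0.43 to -0.31 and did not pass. Without either Foxd1-/- array 0 genes passed at all, in place of 1764. Cldn4 and Dsp were the 2 members at an unadjusted p under 0.05, beside 25.5% of all genes, and 8 members were below 0 and 2 above (Cldn3, Cldn7), beside 50.7% and 49.3%. Dsp was lower on arrays numbered 2 by -0.38 ± 0.09 and did not pass (limma adjusted p = 0.0726). It passed in limma where only brighter genes were tested (adjusted p = 0.0464), as did 1998 of 11016 genes. The same held where the variance followed intensity (limma adjusted p = 0.0450), beside 2087 of 19938 genes. Cldn4 and Dsp were the 2 members with replicate 2 below replicate 1 in all 3 genotypes, a pattern of 22.8% of all genes, and 0 members had the opposite pattern, against 22.6%. Epcam read lower on number 2 in Foxd1+/+ and Foxd1-/- (-0.62 and -0.66) but higher in Foxd1+/- (0.10). Its fitted difference of -0.40 ± 0.17 did not pass in limma (adjusted p = 0.23). Without either Foxd1+/- array it was -0.64, and Epcam passed in limma there. That value comes from Foxd1+/+ and Foxd1-/- alone, since the Foxd1+/- array left over has no partner. Cdh1 differed by -0.44 in Foxd1+/+, 0.35 in Foxd1+/- and -0.04 in Foxd1-/-, opposite in sign between Foxd1+/+ and Foxd1+/-. What the replicate number stands for is not stated in the labels.

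**Figure D3:**
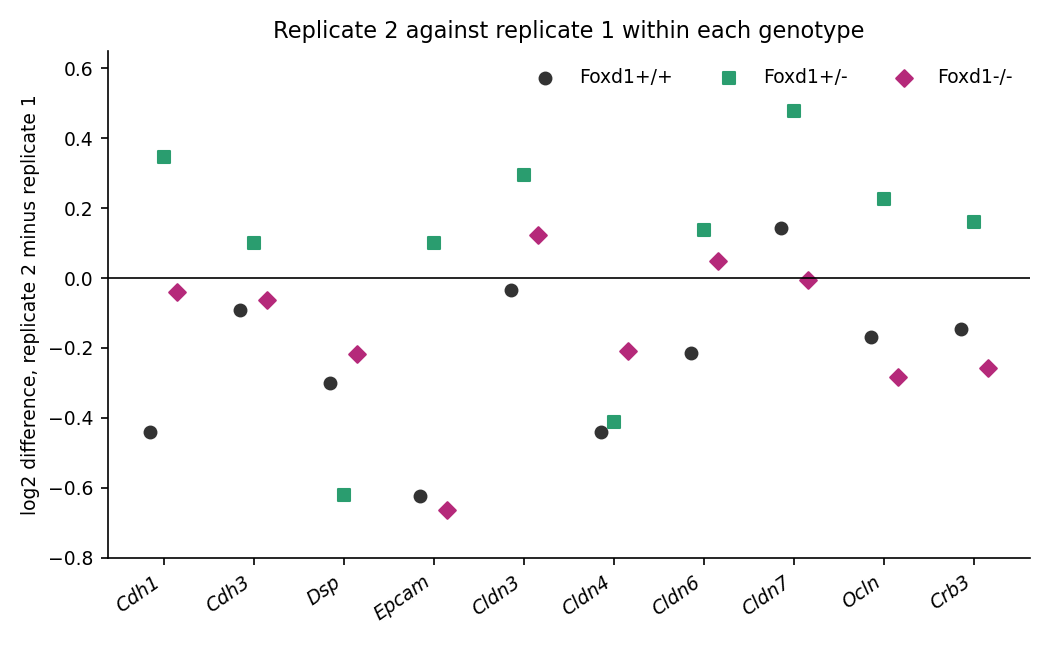
Log2 difference of replicate 2 minus replicate 1 within each genotype for the 10 genes, with circles for Foxd1+/+, squares for Foxd1+/- and diamonds for Foxd1-/-. Cldn4 and Dsp lie below 0 in all 3 genotypes, and in Foxd1+/- the other 8 genes lie above 0.

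The spread of each gene over the 6 arrays was divided between genotype, replicate number and the rest, as a description. Replicate number took 81.4% of the spread of Cldn4, genotype took 56.9% of that of Ocln and 52.1% of that of Dsp, and neither took much of that of Cdh1, where 88.9% was left. The medians over the 10 genes were 33.8% for genotype, 21.4% for replicate number and 36.02% for the rest, beside 26.5%, 29.3% and 26.4% over all genes. The rest holds genotype differences that varied in size or in order between the replicate numbers.

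The order of Foxd1+/- and Foxd1+/+ turned between the numbers in most members, as it did for Foxd1. Foxd1 was lower on Foxd1+/- than on Foxd1+/+ in replicate 1 (log2 difference -0.91) and higher in replicate 2 (0.83). The same turn, below in replicate 1 and above in replicate 2, was seen in 7 of the 10 genes, Cdh1, Cdh3, Epcam, Cldn3, Cldn6, Ocln and Crb3, and in 30.1% of all genes. The differences were -0.44 and 0.34 for Cdh1, -0.29 and 0.44 for Epcam, and -0.07 and 0.32 for Ocln, whereas for Cldn3 the difference in replicate 1 was only -0.0019. Dsp turned the other way (0.15 and -0.17), as did 29.1% of all genes, Cldn4 was lower on Foxd1+/- in both numbers (18.7% of all genes), and Cldn7 was higher in both (22.0%). The array labelled Foxd1+/- replicate 2 had the highest median intensity of the 6 (79.6, the others up to 77.8). After quantile normalization, which gives every array the same distribution, the turn was seen in 5 of the 10 genes, without Cdh3 and Cldn3, and in 29.5% of all genes. On the deposited values all 4 dim members showed it, beside 33.9% of all genes below the median probe set, and 3 of the 6 brighter members, beside 27.1% of the brighter genes. After quantile normalization it was 3 of the 4 dim members, beside 27.7%, and 2 of the 6 brighter members, beside 30.9%. Among the further lists, on the deposited values, the turn was seen in 19 of 45 other junction and polarity genes (42.2%), 4 of 9 keratins, 12 of 17 epithelial regulators, 11 of 14 pluripotency genes and 1 of 15 mesenchymal transition genes. It was seen in 2 of 8 fibroblast, 3 of 8 stratified epithelium, 1 of 8 macrophage and 3 of 6 endothelium markers. This pattern was noticed in the values, and no test of it was made.

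**Figure D4:**
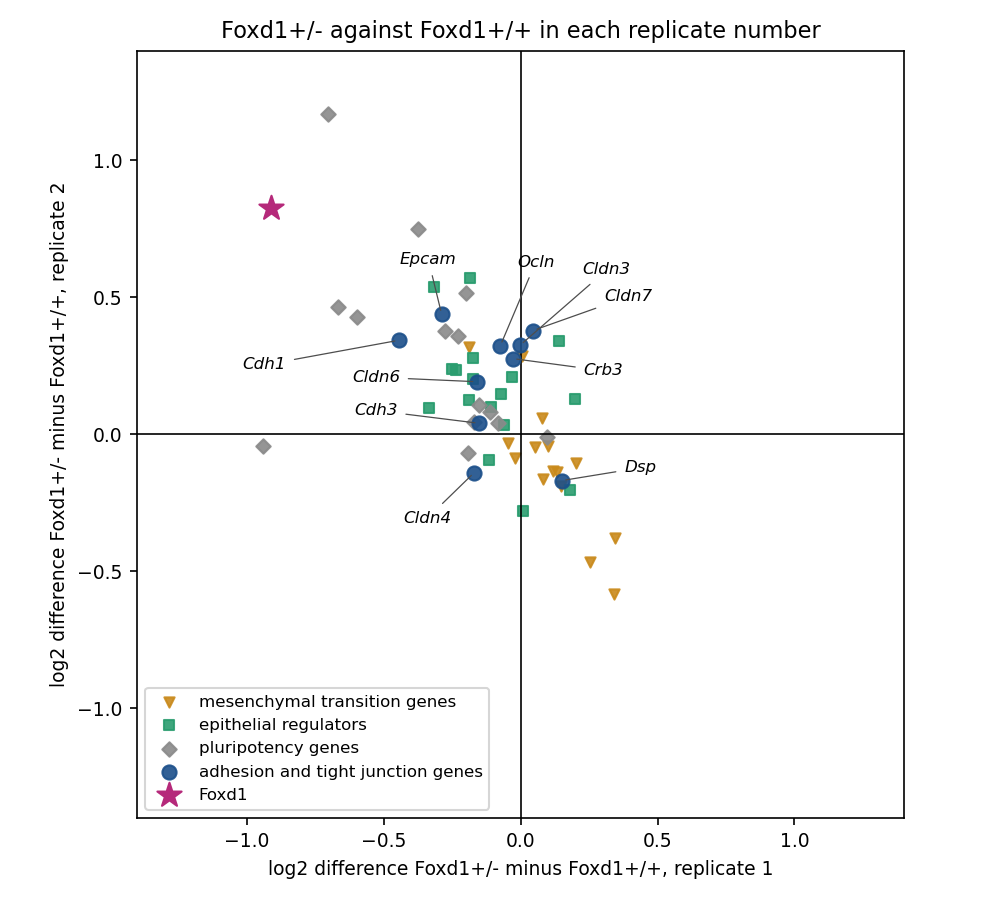
Log2 difference of Foxd1+/- minus Foxd1+/+ in replicate 1 (horizontal) and replicate 2 (vertical), 1 point per gene. The upper left part holds Foxd1 (star), 7 of the 10 adhesion and tight junction genes (labelled circles), 12 of the 17 epithelial regulators (squares) and 11 of the 14 pluripotency genes (diamonds), and 1 of the 15 mesenchymal transition genes (triangles), where 30.1% of all genes lie and, not drawn, 19 of the 45 other junction and polarity genes.

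Further lists place these genes among their partners. Of 54 other junction and polarity genes, 45 were measured, and 0 passed in limma in any comparison of genotypes, with 1 or 2 at an unadjusted p under 0.05 in each. Their median log2 differences were within 0.006 of 0 in the 4 comparisons. Crb1, a paralogue of Crb3 known from the retina, read 37.8 and 41.6 on Foxd1+/+, 39.1 and 41.3 on Foxd1+/-, and 54.1 and 72.1 on Foxd1-/-. It was higher on both Foxd1-/- arrays than on the other 4 (log2 difference from Foxd1+/+ 0.64 ± 0.15). Such a separation held for 5.59% of all genes, and every Crb1 value lay below the median probe set (78.4). By replicate number 6 of the 45 passed in limma, 1 higher and 5 lower on number 2, where 8.85% of all genes passed. Perp, a desmosome gene that p53 activates, had the widest range, at 903, 1079 and 815 on arrays numbered 1 of Foxd1+/+, Foxd1+/- and Foxd1-/- and 548, 493 and 387 on those numbered 2 (log2 difference -0.97 ± 0.09, limma adjusted p = 0.0106). Pkp4, a plakophilin of cell junctions, gave -0.78 ± 0.05 (adjusted p = 0.0064 in limma).

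Of 17 epithelial regulators 0 passed by genotype in limma, with 0 or 1 at an unadjusted p under 0.05. By replicate number 7 passed in limma, 6 of them lower on number 2, where 8.85% of all genes passed. The median log2 difference between the numbers was -0.24 for the 17 regulators, beside -0.06 for the 10 members and -0.002 for all genes. Grhl3, a grainyhead factor of surface epithelium, differed by -1.54 ± 0.06 (limma adjusted p = 0.0045). The membrane protease St14 and its inhibitor Spint1 differed by -0.71 ± 0.06 and -0.68 ± 0.07. The 9 keratins did not share this direction, with 8 higher on number 2. Of the 9, 1 passed in limma (Krt20, 0.64 ± 0.05, adjusted p = 0.0076), beside 8.85% of all genes. All 9 keratins were above 0 in Foxd1-/- against Foxd1+/- (median 0.18) and 8 against Foxd1+/+ (median 0.19), beside 48.6% and 51.8% of all genes. In each, 0 passed in limma and 1 had an unadjusted p under 0.05, beside 2.31% and 2.11% of all genes. The keratin list lay above its mean on 1 array: Krt17 read 183 and Krt5 89.4 on Foxd1-/- replicate 2, where the other 5 arrays gave at most 135 and 60.0.

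Mesenchymal transition genes had the opposite direction between the replicate numbers, with 11 of 15 higher on number 2 (median 0.20). Of the 15, 3 passed in limma, beside 8.85% of all genes. These 3 included Tgfb2 (0.86 ± 0.10, adjusted p = 0.0172) and the fibroblast cadherin Cdh11 (0.52 ± 0.07, adjusted p = 0.0200). By genotype 0 of the 15 passed in limma, with 0 or 1 at an unadjusted p under 0.05. All 14 pluripotency genes were lower on number 2 (median -0.58), and 5 passed in limma, beside 8.85% of all genes. The widest was Tdgf1, a Nodal coreceptor, at 363, 189 and 192 on arrays numbered 1 and 49.6, 48.2 and 46.4 on those numbered 2. By genotype 13 pluripotency genes were below 0 and 1 above in Foxd1-/- against Foxd1+/+, where 48.2% of all genes were below. Against Foxd1+/- 11 were below and 3 above (51.4% below). In each, 0 passed in limma and 2 had an unadjusted p under 0.05, beside 2.11% and 2.31% of all genes. Nr0b1 read 214 and 84.4 on Foxd1-/- and 297 to 600 elsewhere. On Foxd1-/- replicate 2, the lowest array for Epcam, Ocln and Crb3, the pluripotency list had its lowest mean (-0.58 relative to the 6 arrays), and the keratin list (0.32) and the fibroblast markers (0.33) their highest. The 8 measured macrophage markers summed to 1068 and 1149 on the Foxd1-/- arrays and 1370 to 1618 on the other 4. All 8 had a log2 difference below 0 against Foxd1+/+ (48.2% of all genes) and against Foxd1+/- (51.4%). Of the 8, 0 passed in limma, with 1 and 4 at an unadjusted p under 0.05, beside 2.11% and 2.31% of all genes. The 8 fibroblast markers summed to 20725 and 25347 on Foxd1-/- and 16954 to 21273 elsewhere. All 8 were above 0 in Foxd1-/- against Foxd1+/+ (median 0.27, 51.8% of all genes above 0). Against Foxd1+/- 7 were above and 1 below (48.6% above). In each, 0 passed in limma and 1 had an unadjusted p under 0.05. Pdgfra read 452 and 478 on Foxd1-/- and 237 to 335 elsewhere. The 8 stratified epithelium markers summed to 454 and 530 on Foxd1-/- and 446 to 467 elsewhere. The 6 endothelium markers summed to 1203 and 1072 on Foxd1-/- and 1068 to 1139 elsewhere. Such linear sums follow their brightest genes more than the lists. Tek read 869 to 1007, and each other endothelium marker at most 55.6. Col1a1, Col1a2 and Col3a1 read 4359 to 7143, and each other fibroblast marker at most 1636. Lyz2 read 472 to 833, and each other macrophage marker at most 198. The part of these cell types in the values of Dsp and Epcam was not tested.

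**Figure D5:**
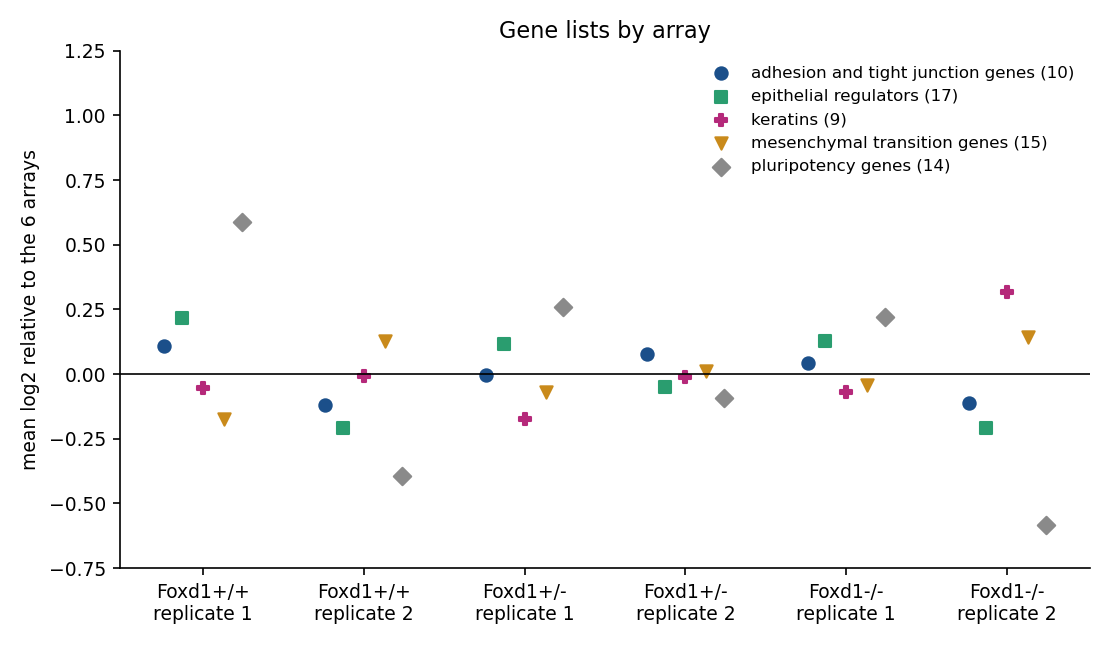
Mean log2 level of each gene list on each array, relative to that list's mean over the 6 arrays, with the number of genes in brackets. The 10 adhesion and tight junction genes stay between -0.12 and 0.11, while the pluripotency genes run from -0.58 to 0.59 and the keratins reach 0.32 on Foxd1-/- replicate 2.

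Epcam alone had a range wide enough for a search for genes of like profile. Over the 6 arrays the 5 nearest of all genes were Lmnb1, which encodes lamin B1 of the nuclear envelope, Ska3, a gene of the spindle and kinetochore complex, Fignl1, a DNA repair gene, Cyp2b23, a cytochrome P450, and Tfrc, the transferrin receptor. Their root mean square differences from the Epcam log2 profile were 0.11, 0.12, 0.13, 0.13 and 0.13, beside a median of 0.35 over all genes. Lmnb1 read 1181 and 905 on Foxd1+/+, 991 and 1020 on Foxd1+/-, and 964 and 653 on Foxd1-/-, in the same order of arrays as Epcam. No other member was among these 5, and the member nearest to Epcam was Ocln at 0.21.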

How the data were processed

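Total RNA of 6 cultures was measured on Affymetrix whole transcript arrays, per the labels' protocols. The authors deposited intensity values on a linear scale. The sources used here do not state their background correction, scaling or summary. The platform annotation gave 21789 of 28856 probe sets 1 symbol, 1621 several and 5446 none. For 999 genes with several probe sets, the brightest on average stood for the gene.

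The scale of every test was log2(intensity + 1), on which differences of dim genes come out too small. All 6 arrays entered limma 3.58.1 in R 4.3.3 (lmFit, eBayes) with a mean for each genotype and without a block, leaving 3 residual degrees of freedom. Benjamini-Hochberg adjustment ran over all 19938 genes at a threshold of 0.05. Replicate number was tested with genotype as an additive term. The fit was tested on simulated data. Replicate differences correlated across genes between genotypes (r of 0.55, 0.73 and 0.73), so the numbers were taken as pairing the arrays, on the data alone and not the labels, and the replicate block was run as an alternative.

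Named genes are the 10 members, Foxd1, up to 3 genes of widest range per further list, and up to 5 nearest profiles for members with a log2 range of at least 1. Provisional names and olfactory and vomeronasal receptors were left out of the last. Members and lists were chosen with earlier results of these data known. Promoters come from RefSeq (GRCm38.p6), and figures were drawn with matplotlib 3.10.9.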

Additional observations from a re-analysis of the deposited data

How the results depend on the processing

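Alternatives were the replicate block, pseudocounts of 0 and 32, quantile normalization, only genes at or above the median probe set, the mean of probe sets, only the arrays compared, an intensity trend or robust variances, and leaving out each array. No genotype comparison called a member or any gene after adjustment under these, and the replicate block changed no call (0 genes). By replicate number 0 members passed with a pseudocount of 32, beside 1375 genes. Among brighter genes 2 members and 1998 genes passed, and with the intensity trend 2 members and 2087 genes. Without 1 array, 0 to 1 members and 0 to 1389 genes passed. Quantile normalization turned Cldn6 in Foxd1+/- against Foxd1+/+ (-0.014) and Cdh3 in Foxd1-/- against the mean of the other genotypes (0.0032). Small log2 differences turned sign when 1 array was left out, which also leaves replicate numbers unequal between genotypes. In Foxd1-/- against Foxd1+/+ these ran from -0.14 to 0.30 (Cdh1), -0.082 to 0.010 (Cdh3), -0.022 to 0.10 (Cldn3), -0.25 to 0.19 (Cldn4), -0.20 to 0.012 (Cldn6), -0.096 to 0.048 (Cldn7) and -0.16 to 0.097 (Crb3). In Foxd1-/- against Foxd1+/- they ran from -0.046 to 0.30 (Cdh1), -0.030 to 0.069 (Cdh3), -0.27 to 0.026 (Cldn3), -0.080 to 0.33 (Cldn4) and -0.47 to 0.0025 (Cldn7). In Foxd1+/- against Foxd1+/+ they ran from -0.27 to 0.17 (Cdh1), -0.24 to 0.39 (Epcam), -0.37 to 0.066 (Cldn4), -0.090 to 0.12 (Cldn6), -0.026 to 0.45 (Cldn7), -0.32 to 0.30 (Dsp) and -0.56 to 0.47 (Foxd1). In Foxd1-/- against the mean of the other genotypes they ran from -0.0079 to 0.21 (Cdh1), -0.039 to 0.023 (Cdh3), -0.11 to 0.033 (Cldn3), -0.061 to 0.16 (Cldn4) and -0.22 to 0.036 (Crb3). By replicate number they ran from -0.24 to 0.15 (Cdh1), -0.077 to 0.019 (Cdh3), -0.082 to 0.093 (Cldn6), -0.23 to 0.028 (Ocln), -0.20 to 0.0073 (Crb3) and -0.27 to 0.60 (Foxd1). The cause was not tested. With 2 arrays per genotype and no detection call, neither small differences nor the presence of the 4 dim members can be settled.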
